A study of Papio anubis with 12 samples.

Results

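The miR-379/miR-410 cluster is a long array of microRNA hairpins inside the imprinted DLK1-DIO3 region. Its levels were described in the frontal cortex of 12 fetal baboons (Papio anubis) at day 165 of gestation, with 1 small RNA library per fetus. The mothers of 6 fetuses (MNR, for maternal nutrient restriction) had been given 70% of the feed that control mothers ate per kilogram of body weight. The mothers of the other 6 fetuses (control) had eaten the same monkey biscuit freely. Each diet held 3 female and 3 male fetuses, and the labels named no other agent, genotype or batch. The members were the entries of the deposited microRNA table whose precursor is one of 40 listed hairpins or a hairpin whose name begins mir-323. The rule found 57 mature names from 42 precursors in 60 entries, of 1921 names in 2234 entries in the whole table. Of these names 17 carry the ending 5p, 18 the ending 3p and 22 no arm.

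MicroRNA hairpins are cut by Drosha and then Dicer into a short duplex, and either strand of it, the 5p arm or the 3p arm, can be loaded into an Argonaute protein to repress mRNAs. The hairpins of the cluster are processed from long noncoding RNA that in mammals is transcribed from the maternally inherited chromosome, while the protein-coding genes DLK1, RTL1 and DIO3 of the same region are expressed mainly from the paternal one. The cluster is found in placental mammals and is most active in brain. In rat neurons its transcription rises with activity through the factor Mef2, and several of its microRNAs act on dendrites and synapses. In the Panubis1.0 gene table of the baboon, RTL1 lies between DLK1 and DIO3, with 36 small nucleolar RNA genes and 9 long noncoding RNA genes listed between RTL1 and DIO3.

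Summed over all entries, the libraries held 1078720 to 1464660 reads in MNR fetuses and 513029 to 1898763 reads in control fetuses. By these totals 1 read was worth 0.527 to 1.95 reads per 1000000 (RPM). Reads of a mature name with several entries can count more than once there. With each name counted by 1 entry, the libraries held 662996 to 871630 reads in MNR fetuses and 299721 to 1079370 reads in control fetuses. Control replicate 6 was the shallowest. The neural microRNAs miR-9, miR-124, miR-128, miR-137, miR-138 and miR-218 summed to 98837 to 123438 RPM in MNR fetuses and to 89448 to 116132 RPM in control fetuses. The liver microRNA miR-122-5p stayed between 0 and 1.37 RPM in MNR fetuses and between 1.47 and 9.75 RPM in control fetuses. The HOX-cluster microRNAs miR-10, miR-196 and miR-615, which mark hindbrain and spinal cord, summed to 426 to 2205 RPM in MNR fetuses and to 699 to 7729 RPM in control fetuses, with control replicate 6 at the top. Nearly all of this sum was miR-10b-5p, at a mean of 1884 RPM, and miR-10a-5p, at 110 RPM. MiR-196a and miR-615 had no read in any library, and miR-196b-5p reached at most 2.38 RPM.

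The share of the microRNA reads held by the whole cluster differed between diets by less than the spread between fetuses. Its members made up 2.10% ± 0.273 of the reads of all mature names in MNR fetuses and 2.07% ± 0.396 in control fetuses (SD, n = 6 each). The share ran from 1.69% to 2.47%, with a median of 2.05%, in MNR fetuses, and from 1.59% to 2.76%, with a median of 2.05%, in control fetuses. The highest value of all was that of control replicate 1 and the lowest that of control replicate 6, so the MNR values lay inside the control range. Each library held at least 1 read of 51 to 53 members. In such bulk tissue, fewer cells of a type and less RNA per cell cannot be told apart.

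A few members carried most of the signal. MiR-410, miR-411-5p, miR-381, miR-889, miR-409-3p and miR-654-3p together held 79.3% ± 0.973 of the cluster's reads in MNR fetuses and 82.5% ± 3.05 in control fetuses (SD, n = 6 each). These shares spanned 78.0% to 80.7% in MNR fetuses and 76.6% to 84.9% in control fetuses, and each MNR share lay below those of all control fetuses except replicate 6, which was the lowest of all. Members named 5p held 21.7% ± 1.70 in MNR fetuses and 23.2% ± 2.49 in control fetuses. Members named 3p held 22.9% ± 1.34 in MNR fetuses and 20.4% ± 2.34 in control fetuses, and the rest lay in names with no arm.

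MiR-410, which with miR-379 gives the cluster its name, was the most abundant member and ranked 33 among all mature names by mean level. It had 2094 to 3935 RPM, median 3078 RPM, in MNR fetuses, and 2401 to 4770 RPM, median 3328 RPM, in control fetuses. MiR-411-5p, rank 40, had 1814 to 2616 RPM, median 1973 RPM, in MNR fetuses, and 1286 to 3244 RPM, median 2472 RPM, in control fetuses. For both of them the single highest fetus was control replicate 1, and the groups overlapped over most of their range. MiR-381, rank 51, had 1366 to 1865 RPM, median 1546 RPM, in MNR fetuses, and 941 to 1992 RPM, median 1632 RPM, in control fetuses. MiR-889, rank 64, had 899 to 1666 RPM, median 1055 RPM, in MNR fetuses, and 919.7 to 1545 RPM, median 1196 RPM, in control fetuses. MiR-409-3p, rank 71, had 777 to 1496 RPM, median 1224 RPM, in MNR fetuses, and 852 to 1485 RPM, median 897 RPM, in control fetuses. All control fetuses but replicate 1 lay within a narrow band of 852 to 924 RPM for miR-409-3p, while MNR fetuses lay on both sides of that band. MiR-654-3p followed at rank 88, with 449.4 to 692 RPM in MNR fetuses and 425 to 649 RPM in control fetuses.

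Below these came miR-487b, miR-323a-3p, miR-380-3p and miR-299-3p at mean levels of 141 to 202 RPM over all fetuses, then miR-379-5p, miR-134 and miR-495 at 123.98 to 133 RPM. MiR-134 is known from rat neurons, where it restrains the growth of dendritic spines by repressing Limk1 mRNA. The next 31 members averaged 10.1 to 98.9 RPM. Among them were miR-376a-3p, miR-376b and miR-376c, a family edited by adenosine deaminases in human and mouse brain. Also in this range were miR-369-3p, miR-496 and miR-543, which in mouse cortex repress N-cadherin mRNA in migrating neurons, and both arms of mir-485, a regulator of presynaptic proteins in rodent neurons. The remaining names of this range ran from miR-539-3p at 80.7 RPM down to miR-655 at 10.1 RPM. The near-identical members of the miR-376, miR-487, miR-1185 and miR-329 families may share reads, so the split between them is uncertain.

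A further 7 members averaged 2.37 to 8.75 RPM, namely miR-541-5p, miR-379-3p, miR-154-3p, miR-539-5p, miR-323a-5p, miR-544a and miR-494. The other 6 members stayed under the minimum mean of 1 RPM needed for a test. MiR-412 had 6 reads in the MNR libraries and 2 reads in the control libraries, miR-380-5p had 3 reads in MNR and 4 reads in control, and miR-1185-2-3p had 1 read in MNR and 2 reads in control. MiR-1193, miR-300 and miR-323b-5p had no read in any library, and a count of 0 over all 12 libraries allows a level of up to 0.195 RPM.

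**Figure D1:**
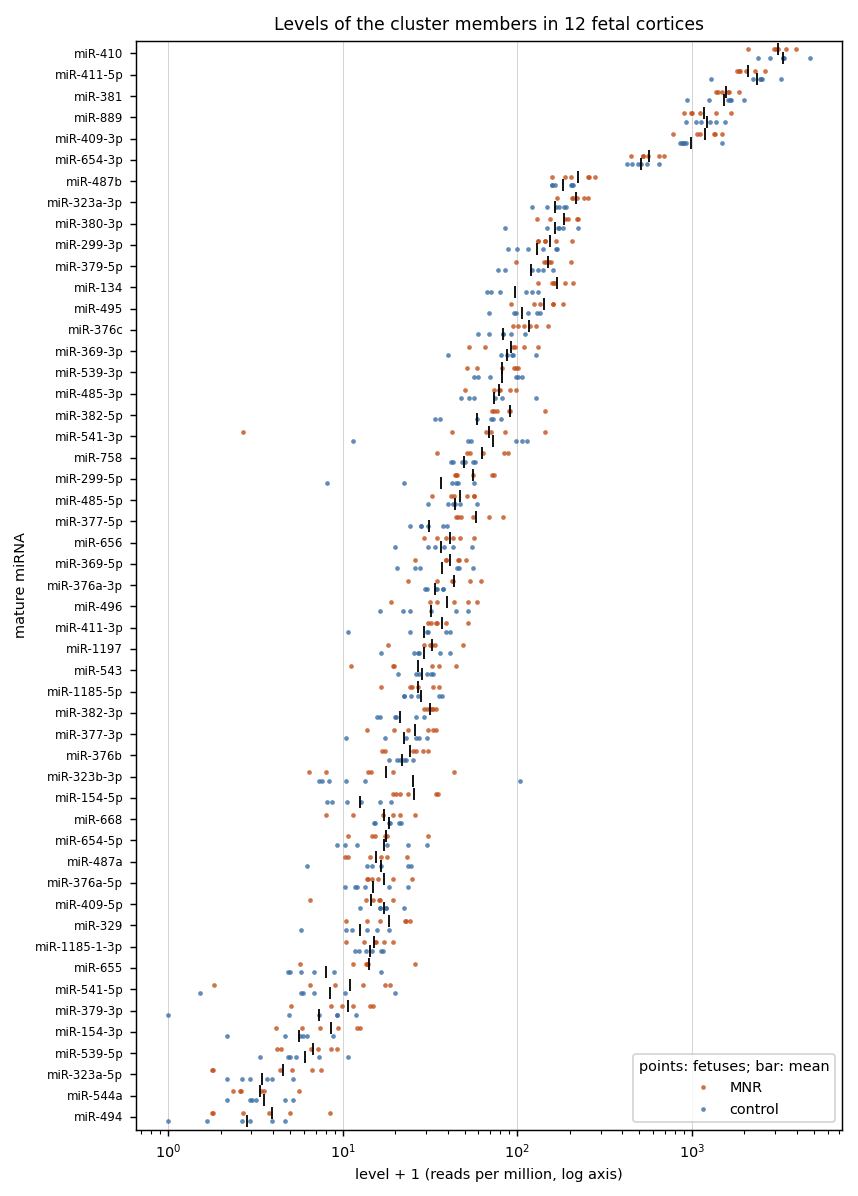
Level of each of the 51 tested members in every fetus (RPM + 1, log axis), with MNR fetuses above control fetuses in each row and a bar at the group mean. The members run from miR-410 at a mean of 3218 RPM to miR-494 at 2.37 RPM, and the diets overlap in nearly every row.

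The diet comparison asked whether restricted feeding of the mother went with other levels of the cluster's microRNAs. MiR-154-5p, miR-377-5p and miR-134 were higher in MNR cortices, and no member was lower. These were 3 of 51 tested members called higher (limma with trend on log2(RPM + 1), Benjamini-Hochberg adjusted over the 481 microRNAs with a mean of at least 1 RPM, threshold 0.05). Over all tested microRNAs 12 of 481 were called higher, which is 2.49%, and 2.7% were called in either direction. The most abundant members, which hold most of the cluster's reads, did not pass the test in either direction. The called members were each of middling or low abundance.

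MiR-134 had 186, 131, 160, 207, 162 and 158 RPM in the 6 MNR fetuses, and 131, 65.7, 111, 70.2, 78.9 and 121 RPM in the 6 control fetuses, replicates 1 to 6 in each. Each MNR fetus lay above each control fetus, although the lowest MNR value and the highest control value were nearly equal. The means were 167 ± 26.1 RPM in MNR fetuses and 96.2 ± 27.97 RPM in control fetuses (SD, n = 6 each), a log2 difference of 0.83 ± 0.19 (SE, limma adjusted p = 0.0436). These values rest on 1245 reads in MNR libraries and 747 reads in control libraries.

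MiR-377-5p, named for the 5p arm of mir-377, had 54.6, 43.8, 45.1, 81.6, 68.3 and 46.8 RPM in MNR fetuses, and 27.1, 23.2, 38.5, 29.7, 36.8 and 27.3 RPM in control fetuses. The groups did not overlap, and the 2 highest fetuses were the males MNR replicate 4 and MNR replicate 5. The means were 56.7 ± 15.2 RPM in MNR fetuses and 30.4 ± 5.97 RPM in control fetuses (SD, n = 6 each), with a log2 difference of 0.86 ± 0.20 (SE, limma adjusted p = 0.0436).

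MiR-154-5p had 19.3, 20.4, 33.5, 34.3, 18.6 and 22.6 RPM in MNR fetuses, and 9.53, 7.73, 17.9, 7.14, 15.4 and 11.7 RPM in control fetuses. Again each MNR value lay above each control value, by a margin that at its narrowest was under 1 RPM. The means were 24.8 ± 7.20 RPM in MNR fetuses and 11.6 ± 4.32 RPM in control fetuses (SD, n = 6 each), a log2 difference of 1.06 ± 0.26 (SE, limma adjusted p = 0.0470). Counting was sparse here, with 186 reads in all MNR libraries and 96 reads in all control libraries.

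These 3 were also the members whose groups did not overlap, 3 of 51, beside 16 of 481 tested microRNAs, or 3.33%, and 3.12% with all MNR values above all control values. The calls lay close to the threshold. With median-ratio or TMM scaling, with a pseudocount of 5 RPM, and with edgeR or limma-voom on the reads recovered from the RPM values, none of the 51 members passed, beside 0.624% of all tested microRNAs with either scaling and with either of these tests. DESeq2 called miR-134 alone of the members, beside 1.66%. With fetal sex as a covariate miR-154-5p no longer passed (limma adjusted p = 0.0505). For the pseudocount, the sex term and the left-out fetuses the share over all tested microRNAs is not given. All calls were also lost when any of MNR replicates 1, 3, 4, 5 or 6 or control replicates 2, 3, 4 or 5 was left out, whereas the log2 difference of each stayed above 0 in every alternative, at 0.58 to 0.93 for miR-134, 0.64 to 0.93 for miR-377-5p and 0.83 to 1.19 for miR-154-5p, leaving aside DESeq2, which gave miR-154-5p no adjusted p.

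The next members by p were miR-382-3p and miR-376c. MiR-382-3p had 28.2 to 33.1 RPM, median 31.1 RPM, in MNR fetuses, and 14.7 to 28.4 RPM, median 19.2 RPM, in control fetuses. The MNR fetuses were tightly grouped and only 1 control fetus reached their range. The log2 difference of miR-382-3p was 0.61 ± 0.20 (SE, limma adjusted p = 0.0923). MiR-376c had 93.2 to 148 RPM, median 113 RPM, in MNR fetuses, and 58.3 to 109 RPM, median 82.0 RPM, in control fetuses, with a log2 difference of 0.51 ± 0.18 (SE, limma adjusted p = 0.101). Neither passed the threshold.

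**Figure D2:**
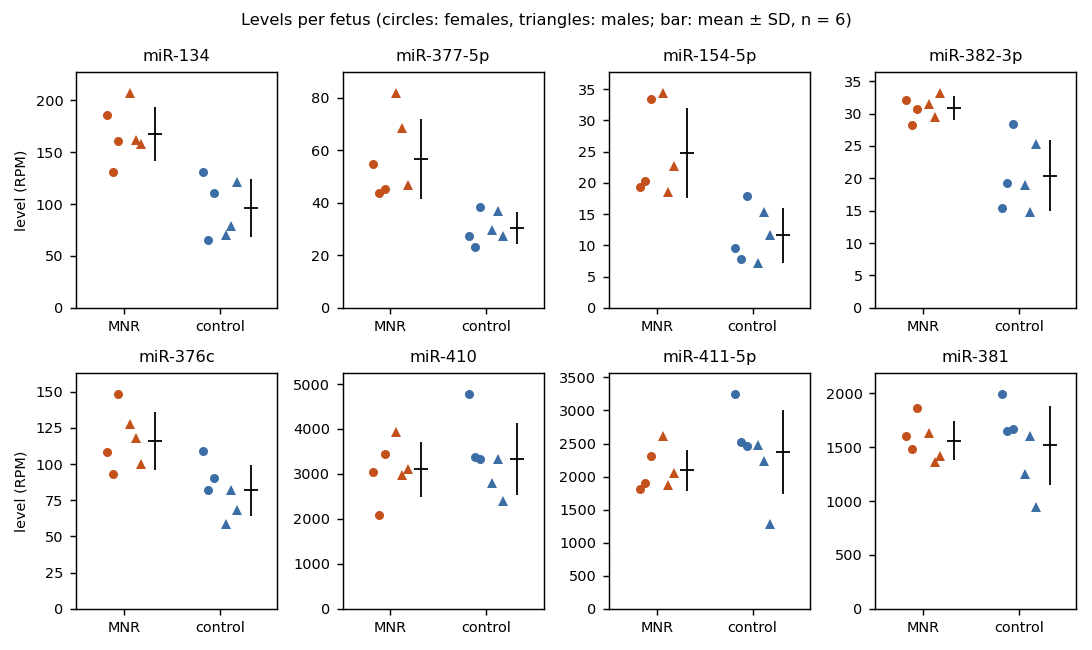
Level (RPM) per fetus of the 5 members of smallest p and of the 3 most abundant members, MNR left of control, with circles for females, triangles for males and a bar for mean ± SD (n = 6 each). For miR-154-5p, miR-377-5p and miR-134 every MNR point lies above every control point, whereas for miR-410, miR-411-5p and miR-381 the diets overlap.

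In RPM, before the common shift of all tested microRNAs given below is considered, the abundant members differed little between diets. Mean levels of miR-410 were 3101 ± 609 RPM in MNR fetuses and 3336 ± 802 RPM in control fetuses (SD, n = 6 each), with a log2 difference of -0.10 ± 0.17 (SE, limma adjusted p = 0.779). For miR-411-5p they were 2093 ± 312 RPM in MNR fetuses and 2371 ± 632 RPM in control fetuses, with a log2 difference of -0.14 ± 0.18 (SE, limma adjusted p = 0.693). The intervals around these differences were wide enough to hold changes of some size, from -0.45 to 0.26 for miR-410 and from -0.52 to 0.24 for miR-411-5p (95%, log2).

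The log2 differences of miR-381, miR-889 and miR-654-3p were 0.07, -0.07 and 0.14, and that of miR-381 and miR-654-3p turned below 0 under median-ratio and TMM scaling. MiR-409-3p averaged 1190.4 ± 259 RPM in MNR fetuses and 989 ± 244 RPM in control fetuses, a log2 difference of 0.26 that did not pass the test (limma adjusted p = 0.374). MiR-487b, miR-380-3p and miR-299-3p had log2 differences of 0.27, 0.21 and 0.27, of which that of miR-380-3p fell just below 0 under median-ratio scaling. MiR-323a-3p had 215.6 ± 30.1 RPM in MNR fetuses and 163 ± 25.5 RPM in control fetuses (SD, n = 6 each), and its log2 difference of 0.40 did not pass the test either (limma adjusted p = 0.141).

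At the other end, the lowest log2 differences among members with a mean of at least 10 RPM were those of miR-541-3p, miR-409-5p and miR-543. MiR-541-3p had 84.3, 41.5, 69.6, 142.8, 1.69 and 65.4 RPM in MNR fetuses, and 112, 51.4, 10.5, 97.6, 53.5 and 105 RPM in control fetuses. A single fetus in each diet, MNR replicate 5 and control replicate 3, stood far below the rest, and the log2 difference of -0.43 ± 0.75 (SE, limma adjusted p = 0.782) became 0.37 without MNR replicate 5. The partner arm miR-541-5p, chosen after its values were seen, was also lowest in these fetuses, at 0.84 RPM in MNR replicate 5 and 0.53 RPM in control replicate 3, each a single read. The other fetuses had 5.48 to 17.6 RPM of miR-541-5p under MNR and 4.76 to 19.1 RPM under control. In rat cells miR-541 acts on neurite growth. The log2 differences of miR-409-5p and miR-543 were -0.30 ± 0.26 and -0.19 ± 0.29 (SE), and neither passed the test.

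Over the tested members the diet differences leaned upward to the same degree as the rest of the table. The log2 difference lay above 0 for 40 of 51 members, 78.4%, as it did for 377 of 481 tested microRNAs, also 78.4%. Its median was 0.22 over the members and 0.23 over all tested microRNAs. Median-ratio scaling moved the median of all tested microRNAs to 0.03 and TMM scaling moved it to 0.06, so differences in RPM sit on a common shift. Relative to the median of all tested microRNAs the log2 differences of miR-154-5p, miR-377-5p and miR-134 were 0.83, 0.63 and 0.60. For the most abundant members, miR-410, miR-411-5p, miR-381, miR-889, miR-409-3p and miR-654-3p, they were -0.33, -0.37, -0.16, -0.30, 0.03 and -0.09. None of these abundant members passed the test under any alternative. Without adjustment 9 of 51 members had p under 0.05, each of them higher in MNR fetuses, beside 93 of 481 or 19.3% of all tested microRNAs on that side.

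By arm, 2 of 15 tested members named 5p were called higher, 0 of 17 named 3p and 1 of 19 with no arm in the name. Among all tested microRNAs 9 of 192 with 5p names were called higher and 1 lower, 1 of 187 named 3p was called higher, and 2 of 102 with no arm were called higher. The median log2 difference of the members was 0.23 for 5p names, 0.21 for 3p names and 0.21 for names with no arm. The difference between the arm classes was not tested.

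**Figure D3:**
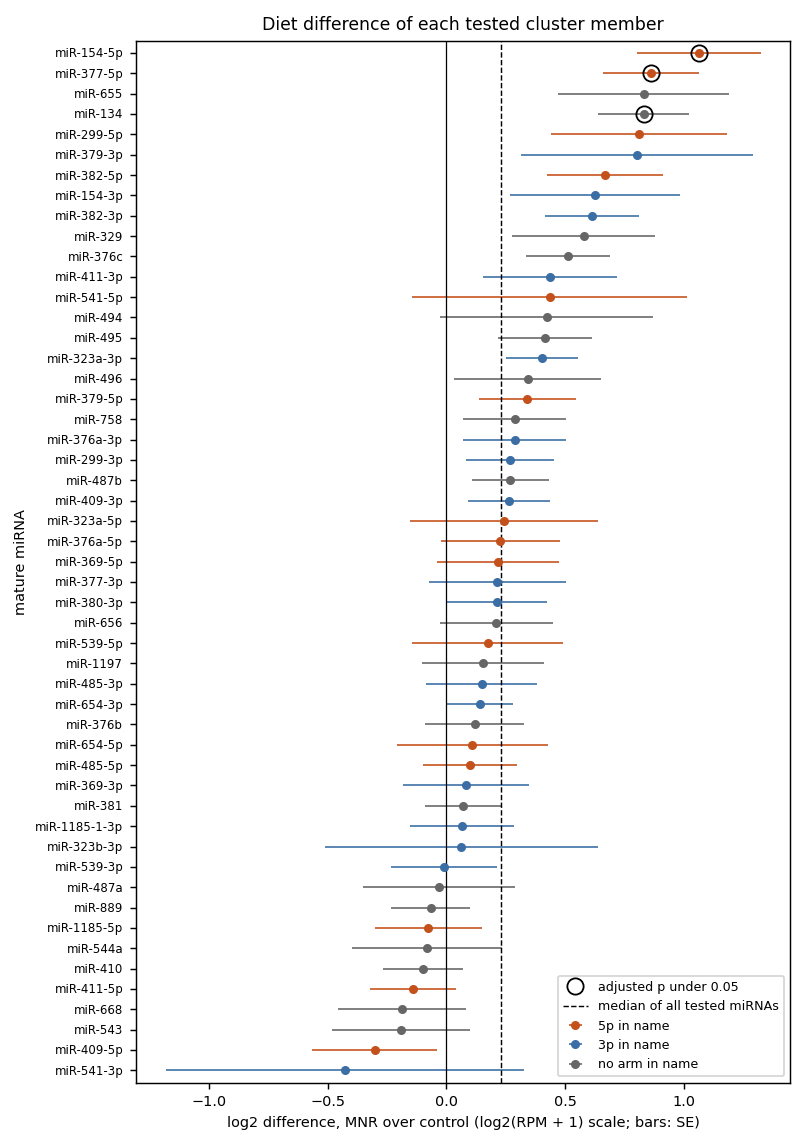
Log2 difference of each tested member, MNR over control, on the log2(RPM + 1) scale with its SE, coloured by arm, with a dashed line at the median of all tested microRNAs (0.23). The circled members miR-154-5p, miR-377-5p and miR-134 passed the threshold, and 40 of the 51 points lie above 0.

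Markers of other cell types were read beside these calls. Over all tested microRNAs 2.49% were called higher and 2.7% in either direction. The red blood cell microRNAs miR-144, miR-451 and miR-486 summed to 3117 to 5710 RPM in MNR fetuses and to 2165 to 3920 RPM in control fetuses. Of their 5 tested members 1, miR-451a, was called higher. The oligodendrocyte microRNAs miR-219 and miR-338 summed to 336.6 to 521 RPM in MNR fetuses and to 251 to 375 RPM in control fetuses, with 0 of 5 tested called. The microglial and leukocyte microRNAs summed to 158 to 327 RPM in MNR fetuses and to 140 to 215 RPM in control fetuses, with 0 of 4 called. The part of these markers in the calls of the cluster was not tested. Vessel microRNAs ranged from 16597 to 48200 RPM in MNR fetuses and from 24149 to 37163 RPM in control fetuses, and choroid plexus microRNAs from 748 to 1911 RPM in MNR fetuses and from 599 to 2113 RPM in control fetuses. No member of the vessel, choroid plexus, HOX or neural lists was called. The liver microRNA miR-122-5p, the only tested member of its list, was called lower, which was the single lower call among all tested microRNAs (0.208%).

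The authors' deposited table gives an unadjusted p for the same comparison. Over all fetuses 7 of 51 members had p under 0.05 in the authors' deposited table, beside 102 of 481 tested microRNAs or 21.2%. The smallest of them in the authors' deposited table belonged to miR-134 (0.00105), miR-382-3p (0.00121), miR-377-5p (0.00278) and miR-154-5p (0.00322).

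Diet was also compared within each sex, with the 4 cells of sex and diet in a single fit and 3 fetuses in each cell. No member passed the threshold in females, in males or for the difference between the sexes. Over all 481 tested microRNAs 0% were called in females, 1.66% in males, all of them lower, and 0% for the difference. Without adjustment p was under 0.05 for 3 of 51 members in females, where the share over all tested microRNAs was 10.2%. In males it was under 0.05 for 11 of 51 members, all higher in MNR fetuses, where the share of all tested microRNAs on that side was 13.3%. For the difference it was under 0.05 for 3 of 51 members, each with the larger value in males, where the share over all tested was 4.99%, and 1.87% on that side.

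The median log2 difference of the members was 0.09 in females, beside 0.16 for all tested microRNAs, and 0.46 in males, beside 0.26. The difference of the diet effect, males minus females, had a median of 0.40 over the members and 0.08 over all tested microRNAs, and lay above 0 for 42 of 51 members and for 267 of 481 microRNAs. Over 16 other tested microRNAs of the DLK1-DIO3 region the median was 0.38, with 13 of 16 above 0. The members tended to vary together over the libraries and each cell held 3 fetuses, so the 51 differences are not separate observations. A few fetuses can move most of them at once. The 3 control males included replicate 6, the shallowest library. The part of this or any other single fetus in these medians was not tested. MiR-134 averaged 159 ± 27.8 RPM in MNR females, 102 ± 33.3 RPM in control females, 176 ± 26.97 RPM in MNR males and 90.0 ± 27.1 RPM in control males (SD, n = 3 each). It was higher under MNR in both sexes, by a log2 difference of 0.67 in females and 0.99 in males, and neither passed the test within a sex. MiR-377-5p, at 0.70 in females and 1.02 in males, and miR-154-5p, at 1.03 in females, did not pass within a sex either. MiR-376c had the third smallest p in males, at 115 ± 14.1 RPM in MNR males and 69.6 ± 12.05 RPM in control males, a log2 difference of 0.73 (limma adjusted p = 0.180).

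The members of smallest p for the difference between the sexes were miR-1197, miR-544a and miR-323a-5p, each with limma adjusted p = 0.784. MiR-1197 averaged 25.6 ± 7.42 RPM in MNR females, 34.0 ± 6.99 RPM in control females, 37.3 ± 9.54 RPM in MNR males and 22.2 ± 5.74 RPM in control males (SD, n = 3 each). Its mean was thus lower under MNR in females and higher under MNR in males, with a difference of 1.15 ± 0.46 (log2, SE) that did not pass the test. MiR-544a and miR-323a-5p, both under 7 RPM in every fetus, had differences of 1.37 ± 0.58 and 1.64 ± 0.69 (log2, SE).

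The arms of a hairpin were compared within each library, which removes the scaling between libraries. Of 109 hairpins with both arms at a mean of at least 5 RPM, 14 belonged to the cluster. The 5p arm was the more abundant in 6 of them and the 3p arm in 8, while in the whole table the 5p arm led in 68 hairpins and the 3p arm in 41. The median absolute log2 ratio of the arms was 1.60 in the cluster's hairpins, beside 3.45 over all hairpins, a contrast that was not tested. Arm choice nevertheless ran to both extremes within the cluster. The folds given here come from the mean log2 ratio over the 12 libraries, with 1 RPM added to each arm. MiR-411-5p was 69.3-fold more abundant than miR-411-3p, whereas miR-409-3p was 69.6-fold more abundant than miR-409-5p. The hairpins mir-654 and mir-539 also favoured the 3p arm, by 32.9-fold and 13.0-fold, and mir-379 favoured the 5p arm by 17.04-fold. The most even hairpins were mir-485, where the 3p arm led by 1.64-fold, mir-377 and mir-1185-1, where the 5p arm led by 1.82-fold and 1.85-fold, and mir-369 and mir-376a-1, where the 3p arm led by 2.28-fold and 2.41-fold. The leading arm was the same in all 12 libraries for 12 of these 14 hairpins, and mir-485 and mir-377 each had a single control library in which it was the other.

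No cluster hairpin had an arm ratio that passed the diet test, 0 of 14, beside 1.83% of all 109 hairpins, and 3 of 14 had an unadjusted p under 0.05, beside 16.5%. The smallest p belonged to hsa-mir-411, whose log2 ratio of 5p to 3p was 5.65 to 5.95 in MNR fetuses and 5.98 to 6.90 in control fetuses. The MNR fetuses were close together and all lay below the control fetuses, a separation that 2 of 109 hairpins showed, or 1.83%. The means were 5.83 ± 0.12 in MNR fetuses and 6.40 ± 0.30 in control fetuses (SD, n = 6 each), a difference of -0.58 ± 0.15 (SE, limma adjusted p = 0.0653). MiR-411-3p had 29.8 to 51.0 RPM in MNR fetuses and 9.75 to 40.3 RPM in control fetuses, with 5 reads in the shallow library of control replicate 6. The mir-411 difference passed the threshold in 4 of 17 alternatives, over which the limma adjusted p ran from 0.0229 to 0.131. It passed without control replicate 1 (-0.60, limma adjusted p = 0.0453) and without control replicate 3 (-0.66, limma adjusted p = 0.0266). It also passed with a pseudocount of 5 RPM (-0.51, limma adjusted p = 0.0342) and with both arms at 20 RPM or more (limma adjusted p = 0.0229). The share called over all hairpins is not given for these alternatives.

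For hsa-mir-409 the log2 ratio was -6.40 ± 0.33 in MNR fetuses and -5.84 ± 0.41 in control fetuses (SD, n = 6 each), a difference of -0.57 ± 0.21 (SE, limma adjusted p = 0.140). It passed only without control replicate 1, at -0.70 (limma adjusted p = 0.0453). For hsa-mir-377 the log2 ratio was 1.19 ± 0.48 in MNR fetuses and 0.54 ± 0.58 in control fetuses, a difference of 0.64 ± 0.28 (SE, limma adjusted p = 0.237). The higher level of miR-377-5p under MNR stood beside miR-377-3p levels of 24.9 ± 8.24 RPM in MNR fetuses and 21.5 ± 7.30 RPM in control fetuses, which overlapped widely.

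**Figure D4:**
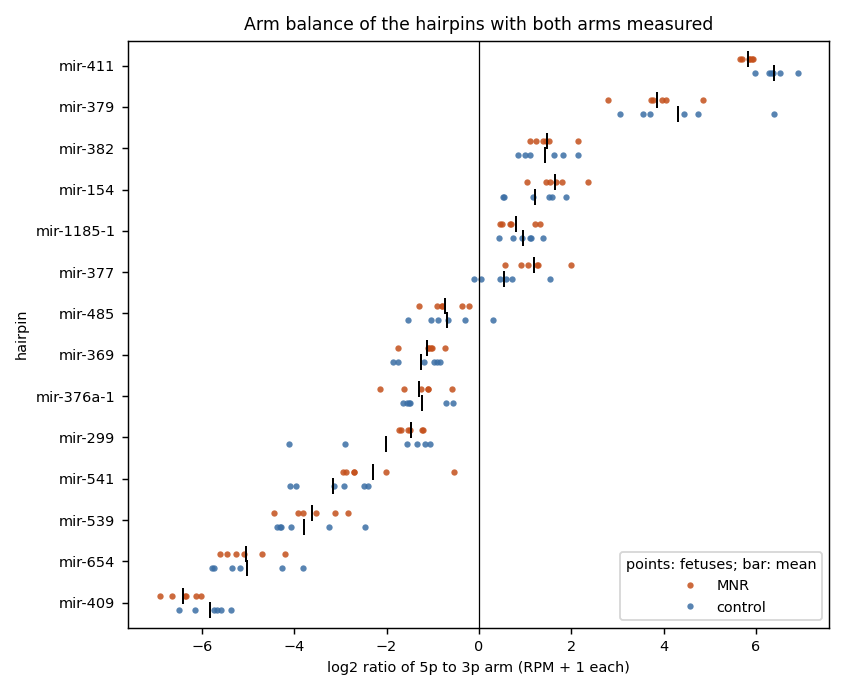
Log2 ratio of the 5p to the 3p arm (RPM + 1 each) in every fetus for the 14 hairpins of the cluster, MNR above control in each row, with a bar at the group mean. The ratios run from about 6 for mir-411 to about -6 for mir-409, and only for mir-411 do the diets not overlap.

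The members tended to be high or low in the same fetuses. Over the 12 libraries the median Spearman correlation of the 1275 pairs of tested members was 0.38, with quartiles of 0.17 and 0.56, and 87.4% of the pairs lay above 0. Over all 115440 pairs of tested microRNAs the median was 0.13 and 63.9% lay above 0. All pairs share their libraries, depth and scaling, and the members' median was 0.15 with median-ratio scaling, beside 0.00 over all pairs. With the mean of each diet removed the members' median was 0.34, beside 0.07 over all pairs, and among members of at least 50 RPM it was 0.45, beside 0.18. Leaving out each library in turn gave 0.29 to 0.41, with the lowest value without MNR replicate 4.

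The mean standardised log2 level of the 20 members at 50 RPM or more was highest in MNR replicate 4 (1.09 SD), MNR replicate 3 (0.78 SD) and control replicate 1 (0.68 SD). It was lowest in MNR replicate 2 (-0.83 SD) and control replicate 6 (-0.68 SD). The other MNR fetuses, replicates 1, 5 and 6, had 0.43, 0.12 and 0.08 SD, and the other control fetuses, replicates 2 to 5, had -0.52, -0.09, -0.53 and -0.54 SD. All MNR fetuses but replicate 2 thus lay above 0, and all control fetuses but replicate 1 lay below 0. Control replicate 6 was also the shallowest library, with 513029 reads over all entries. The median-ratio scaling factor, taken over tested microRNAs of the whole table, was highest in MNR replicate 4 (1.21) and MNR replicate 3 (1.19). It showed the same split, above 1 in all MNR fetuses but replicate 2 (0.92) and below 1 in all control fetuses but replicate 1 (1.01). The part of depth and of scaling in this order was not tested.

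Among single members, miR-376a-3p (rho = 0.94), miR-409-3p (0.88), miR-1197 (0.87) and miR-411-3p (0.87) followed the mean of the other members most closely over the 12 libraries. MiR-409-5p (-0.10), miR-485-3p (-0.06) and miR-539-5p (0.00) followed it least. The arms of mir-409 thus stood near opposite ends of this Spearman order, with levels that differed 69.6-fold by their mean log2 ratio. By Pearson correlation miR-409-5p had 0.23, above miR-485-3p (0.03) and miR-539-5p (0.07). It rested on 7 to 28 reads per library. MiR-323b-3p also did not follow (rho = 0.10). It had 5.46 to 42.6 RPM in MNR fetuses, and 6.32 to 12.5 RPM in the control fetuses except replicate 6, which had 103 RPM.

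**Figure D5:**
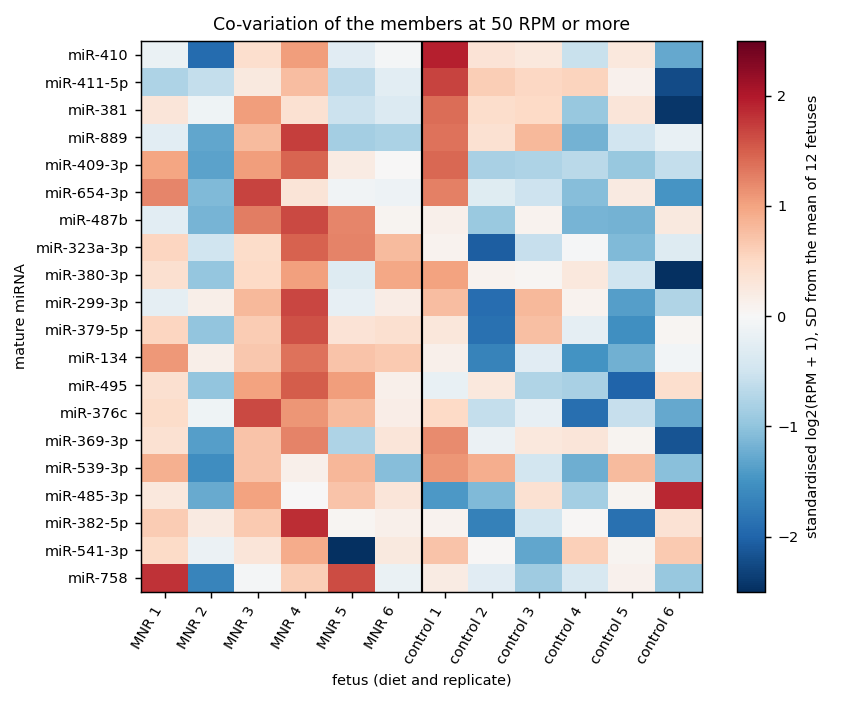
Standardised log2(RPM + 1) of the 20 members at 50 RPM or more (rows, by abundance) in the 12 fetuses (columns, MNR left of control), in SD from the mean of all fetuses. MNR replicate 4 and control replicate 1 are high in most rows and MNR replicate 2 is low, while single rows such as miR-541-3p in MNR replicate 5 depart from the rest.

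Outside the cluster, the tested microRNAs most like its mean level over the 12 libraries were miR-378a-3p (rho = 0.93, Pearson r = 0.91), miR-150-5p (rho = 0.90), miR-22-3p (rho = 0.90), miR-136-3p (rho = 0.87) and miR-431-3p (rho = 0.87). Without the 2 fetuses farthest from the median of the cluster's mean level, MNR replicates 2 and 4, the correlation of miR-378a-3p was 0.88. MiR-136-3p and miR-431-3p come from hairpins of the same imprinted region, on the strand opposite RTL1. A list of other microRNAs of the region held those opposite RTL1, upstream ones and miR-1247-5p near DIO3. Over its 16 tested microRNAs the median correlation with the cluster was 0.67, from 0.09 for miR-337-5p to 0.87 for miR-136-3p. Over all 430 tested microRNAs outside the cluster the median was 0.27. For diet, 78.4% of all tested microRNAs had a log2 difference above 0, with a median of 0.23, and 2.7% were called in either direction. Of the 16 listed, 14 lay above 0, or 87.5%, with a median of 0.38, and none passed the test. The most abundant of them, miR-127-3p, which in mice silences Rtl1, had 17193 ± 2869 RPM in MNR fetuses and 15314 ± 2599 RPM in control fetuses (SD, n = 6 each), a log2 difference of 0.17 (limma adjusted p = 0.514).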

How the data were processed

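Total RNA of fetal frontal cortex was extracted with a column kit and made into small RNA libraries with Illumina's kit, per the labels' protocols. Which programs aligned and counted the reads is not given in the sources. The submitters' processing notes name the human build hg18 with no role, so no coordinates are given. The authors deposited levels in RPM, per the file headers, and these sum to 1000000 per library over all entries. A pooled read count for each entry and p-values without adjustment were also deposited by the authors. Human names stand for the baboon microRNAs that matched them.

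The RPM steps gave back whole reads, with 100% of values above 0 within 0.0051 RPM of a whole read. Reads carry no molecular identifiers, so limits at 0 (3 reads) cover counting error only. Each mature name was represented by its entry of most reads, and shares use the sum over names as denominator. All 12 columns of levels were mapped to fetuses by the labels, leaving 0 columns of other samples.

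Log2(RPM + 1) of the 481 names with a mean of at least 1 RPM was fitted with limma 3.58.1 (trend, R 4.3.3) over the 12 fetuses, and p-values were Benjamini-Hochberg adjusted over all of them, with a threshold of 0.05. Log2 differences on this scale understate changes of low microRNAs. Sex contrasts used the 4 cells of sex and diet, and arm ratios used 109 hairpins with both arms at 5 RPM or more. The fits were also run on simulated data, and the outcome is not given here. Alternatives changed the scaling, pseudocount, filter, choice of entry, trend and sex term, left out each fetus, or ran edgeR 4.0.16, DESeq2 1.42.0 and limma-voom on the recovered reads. The series counts 6 fetal cortices per diet and names no mother. Replicate numbers only tell fetuses apart.

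The members and lists were chosen with earlier results of these data known. Named with values were the 10 most abundant members, those called, the 5 of smallest p for diet and 3 in other comparisons, the 3 of lowest log2 difference, the hairpins of most and least even arms, and the 5 most similar outside microRNAs. Others are named by level or said to be chosen after their values were seen.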

Additional observations from a re-analysis of the deposited data

Results flagged for a closer look

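Of 64 groups of 6 fetuses examined for a fetus far from its group by Dixon's test, 3 held such a fetus, where chance gives about 1 in 20. MiR-409-3p had 1485 RPM in control replicate 1, while the other control fetuses had 852 to 924 RPM. MiR-544a had 4.64 RPM in MNR replicate 4, while the other MNR fetuses had 1.37 to 2.53 RPM, a gap of a few reads. The log2 ratio of the 5p to the 3p arm of mir-369 was -1.76 in MNR replicate 4, while the other MNR fetuses had -1.11 to -0.74. Control replicate 1 and MNR replicate 4 were also among the fetuses with the highest mean level of the cluster, at 0.68 SD and 1.09 SD, and whether this bears on the 3 values was not tested.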

How the results depend on the processing

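The count of members called higher under MNR, 3 in the reported fit, was 0 under median-ratio scaling, TMM scaling, a pseudocount of 5 RPM, no filter, summed entries, no trend, edgeR and limma-voom, 1 under DESeq2 (miR-134), 2 with fetal sex as a covariate, where miR-154-5p had adjusted p = 0.0505, and 0 to 3 when single fetuses were left out. Of all tested microRNAs 2.7% were called in either direction in the reported fit. This share was 0.624% with either scaling, edgeR or limma-voom and 1.66% with DESeq2. It is not given for the other alternatives, so whether calls outside the cluster were lost there too is not shown. No member was called lower, or called within a sex or for the sex difference, under any alternative run. The adjusted p ranged over alternatives from 0.0157 to 0.111 for miR-134, from 0.0334 to 0.134 for miR-377-5p and from 0.0338 to 0.136 for miR-154-5p (DESeq2 gave none). The cause of the lost calls was not tested.

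Log2 differences below 0 under median-ratio scaling, TMM scaling, edgeR, limma-voom and DESeq2, in this order, were -0.15, -0.12, -0.16, -0.14 and -0.19 for miR-381 and -0.081, -0.047, -0.058, -0.063 and -0.090 for miR-654-3p. For miR-380-3p they were -0.00722 under median-ratio scaling, -0.032 under edgeR, -0.022 under limma-voom and -0.065 under DESeq2. With single fetuses left out, log2 differences crossed 0 for miR-541-3p (-0.90 to 0.37), miR-543 (-0.36 to 0.037), miR-410 (-0.19 to 0.011), miR-889 (-0.17 to 0.0065) and miR-381 (-0.059 to 0.16), and arm ratio differences for mir-654 (-0.20 to 0.21), mir-485 (-0.22 to 0.15) and mir-376a-1 (-0.20 to 0.11). None of these passed the threshold.

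Cluster hairpins called with a higher 3p share under MNR numbered 1 with a pseudocount of 5 RPM and 1 with both arms at 20 RPM or more. They numbered 0 to 2 with single fetuses left out. The share called over all tested hairpins is not given for these alternatives, and the 20 RPM minimum changes the set of hairpins. The cluster's share was 1.23% in MNR fetuses and 1.21% in control fetuses with summed entries, where the total counts repeats, and 1.56% in MNR fetuses and 1.497% in control fetuses without miR-410. The median correlation of member pairs was 0.15 with median-ratio scaling. Of the recomputed values and counts, 1002 stayed within the bounds set for a change, 33 reversed, 53 lost and 5 gained a call, and 39 counts, shares or correlations moved. No paired analysis was possible because the labels carry no number that pairs fetuses. Where 1 read is worth up to 1.95 RPM, members under a few RPM cannot show small differences.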

Other observations

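The authors' deposited pooled read count exceeds the sum over these 12 libraries, so it holds reads of libraries not analysed here. The 12 cortex libraries held 33.9% of the pooled reads of the tested members and 12.3% of those of all tested microRNAs. Among the members this share ran from 19.4% for miR-379-3p to 80.9% for miR-1197, with a median of 43.8%, while the median over all tested microRNAs was 31.6%. The 5p and 3p arms of mir-323a lay at 78.3% and 71.6%, those of mir-299 at 21.3% and 24.4%, and miR-411-5p at 20.1%. Within the cluster, then, members of similar cortical level held quite different shares of the pooled reads.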
